A study of Rattus norvegicus with 16 samples.

Results

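The 8 genes described here encode receptors for serotonin and for noradrenaline and adrenaline. They are 5 serotonin receptors, Htr1a, Htr1b, Htr2a, Htr2c and Htr4, and 3 adrenergic receptors, Adra1a, Adra2a and Adrb1. They were chosen by name, not by a measured value, from the 15580 genes of the deposited table, and all 8 passed the filter on low counts. RNA was sequenced from brain samples of male Wistar rats, named amygdala in the design text and whole tissue lysate in the labels.

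Each of the 4 groups held 4 libraries. The ELS-HFD group, for early-life stress and high fat diet, had been kept from the dam 3 h a day for 16 days starting at postnatal day 1, and ate the high fat diet from postnatal day 60. The ELS group had the same separation and ate standard chow. The HFD group stayed with the dam and ate the high fat diet, and the control group stayed with the dam and ate chow. All rats had been through an elevated plus maze near postnatal day 57, controls included. The labels do not say whether each library is 1 rat, whether tissue was pooled or which rats were litter mates. P-values thus reflect only how far these samples lie apart, and some of that distance may be technical.

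All 8 receptors belong to the family that spans the membrane with a bundle of helices and signals through G proteins. Htr1a, Htr1b and Adra2a couple to inhibitory G proteins of the Gi/o class, which lower cyclic AMP and open potassium channels. Htr2a, Htr2c and Adra1a couple to Gq, which activates phospholipase C, and Htr4 and Adrb1 couple to Gs, which raises cyclic AMP. Serotonin fibres from the raphe nuclei and noradrenaline fibres from the locus coeruleus reach the amygdala, where these receptors are known for their part in fear, arousal and emotional memory.

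Levels are given as CPM, each gene's counts scaled to a common library size. The libraries held 11438086 to 23629824 counts each. The labelled tissue was checked against marker genes. Rspo2, a marker of basolateral amygdala neurons, was detected at 22.1 to 52.2 CPM over the 16 libraries, and Prkcd, a marker of central amygdala neurons, at 10.3 to 28.3 CPM. Crh, another central amygdala marker, ranged from 1.17 to 9.75 CPM. Transcripts of neighbouring tissue varied between libraries. A marker list was given a level per library by centring the log2 CPM of each gene on its average and then averaging over the list. The list for the choroid plexus, which makes cerebrospinal fluid, was at -5.21 in ELS-HFD 1, -2.32 in ELS 1 and -4.94 in ELS 2, and its abundant member Ttr ranged from 0.275 to 12230 CPM. The striatal list, genes of the medium spiny neurons of the neighbouring striatum, reached 1.19 in ELS 3 and had its lowest level, -0.92, in control 4. The myelin list was also highest in ELS 3, at 1.00, followed by ELS 4 at 0.86. The amygdala lists varied too, and ELS-HFD and ELS did not overlap in either. The central amygdala list ran from -1.08 to 0.12 in ELS-HFD and from 0.205 to 0.519 in ELS. For the basolateral list the ranges were 0.065 to 0.194 in ELS-HFD and -0.301 to 0.003 in ELS. ELS-HFD also lay wholly above control in the basolateral list, where control ran from -0.118 to -0.001. HFD and control overlapped in both lists. In bulk tissue, fewer cells of a type and less RNA per cell cannot be told apart. A difference between groups here may be either.

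None of the 8 receptors changed in any of the 8 comparisons by the quasi-likelihood test of edgeR, at an adjusted p under 0.05 over 14208 genes. The comparisons were the 5 pairs of groups below, the mean diet difference of the separated and undisturbed rats, the mean separation difference on the 2 diets, and the interaction of separation with diet. DESeq2 also called 0 of the 8 in each. Of the 15580 genes given to it, DESeq2 called 5 in ELS-HFD against ELS and 2 in the averaged diet comparison. It called 1 in HFD against control, 1 in ELS-HFD against control and none in the rest. Among all genes tested, edgeR called 0.00704% in ELS-HFD against ELS and 0.00704% in the averaged diet comparison, which is 1 gene each, and 0% in the other 6. The count of 0 receptors is thus close to the background.

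At an unadjusted p under 0.05, 5 of the 64 receptor tests passed. These were Htr4 in HFD against control, where 1.84% of all genes passed, Adrb1 in ELS-HFD against control, where 4.43% passed, and Adra2a in ELS-HFD against ELS, where 6.21% passed. Adra2a also passed in the averaged diet comparison, with a background of 5.54%, and Adrb1 in the averaged separation comparison, with a background of 2.60%. No receptor passed in ELS against control, in ELS-HFD against HFD or in the interaction, where 3.32%, 1.77% and 2.23% of all genes did. In none of the 40 pairwise tests did the 4 libraries of one group lie wholly above or below those of the other. Among all genes, 0.648% lay wholly above and 1.15% wholly below in HFD against control, 0.859% and 0.753% in ELS against control, and 1.06% and 0.929% in ELS-HFD against control. The shares were 1.21% above and 1.32% below in ELS-HFD against ELS, and 0.584% and 0.943% in ELS-HFD against HFD.

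**Figure D1:**
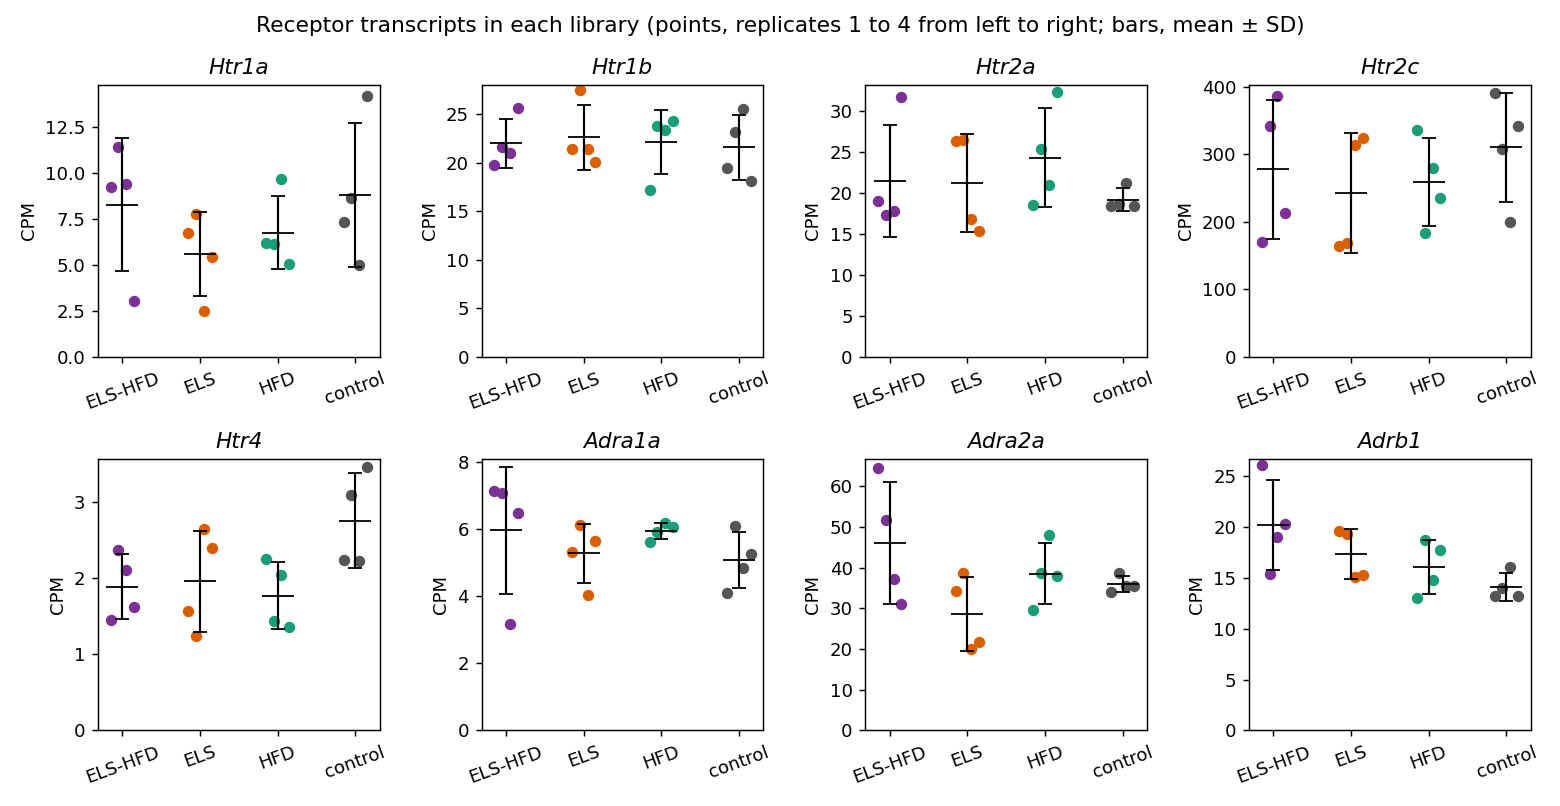
Level of each receptor in CPM (vertical axes, each starting at 0) in the 16 libraries, by group from ELS-HFD to control. Points are libraries and bars are group means with the standard deviation of 4 libraries; for every receptor the groups overlap.

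Htr1a encodes an inhibitory receptor found both on serotonin neurons and on their forebrain targets. Its levels were 9.27, 11.4, 9.41 and 3.05 CPM in the ELS-HFD libraries, 6.74, 7.77, 2.51 and 5.42 CPM in the ELS libraries, 6.21, 6.14, 9.67 and 5.03 CPM in the HFD libraries, and 7.32, 8.64, 5.01 and 14.2 CPM in the control libraries. The lowest values, in ELS 3 and ELS-HFD 4, and the highest, in control 4, came from different groups, and all 4 groups overlapped. The highest library held 5.67 times the level of the lowest, the widest range of the 8 receptors. Group means were 8.29 ± 3.63 CPM in ELS-HFD, 5.61 ± 2.28 in ELS, 6.76 ± 2.01 in HFD and 8.80 ± 3.92 in control (SD, n = 4 each), so the order ran from control through ELS-HFD and HFD to ELS, with no neighbours further apart than their spread.

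The log2 fold of Htr1a was -0.66 ± 0.40 (SE) in ELS against control and 0.57 ± 0.40 in ELS-HFD against ELS. The interaction, the diet difference after separation minus that without it, was 0.95 with a 95% interval of -0.26 to 2.15. These values moved with single libraries and with the striatal list. Without control 4, the ELS against control value was -0.33, without ELS 3 and ELS 4 it was -0.26, and without the 3 libraries low in choroid plexus transcripts it was -1.16. Here and below, leaving out ELS 3 and ELS 4 keeps only ELS 1 and ELS 2 of the ELS group. Leaving out the 3 libraries low in choroid plexus transcripts keeps only ELS 3 and ELS 4 of it. These settings are thus not separate checks. With the striatal list level as a covariate, the ELS against control value was -0.01, and the interaction was 0.03. The same covariate turned the direction of ELS-HFD against ELS, to -0.27, and that value was 0.18 without ELS 3 and ELS 4 and 1.01 without ELS 1, ELS 2 and ELS-HFD 1.

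Htr1b encodes another inhibitory receptor, carried on nerve endings, where it limits transmitter release. It was the steadiest of the 8, with a highest library 1.60 times the lowest. Levels ranged from 19.8 to 25.6 CPM in ELS-HFD, 20.1 to 27.5 in ELS, 17.2 to 24.3 in HFD and 18.2 to 25.5 in control. Group means were 22.02 ± 2.53 CPM in ELS-HFD, 22.6 ± 3.32 in ELS, 22.1 ± 3.34 in HFD and 21.6 ± 3.36 in control (SD, n = 4 each). Every log2 fold lay between -0.08 and 0.07. In HFD against control the 95% interval of the log2 fold was -0.25 to 0.33.

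Htr2a, the Gq-coupled receptor through which classical hallucinogens act, had 19.02, 17.2, 17.8 and 31.7 CPM in the ELS-HFD libraries, 26.3, 26.4, 16.8 and 15.3 CPM in the ELS libraries, 18.5, 25.3, 20.9 and 32.2 CPM in the HFD libraries, and 18.4, 18.6, 21.2 and 18.3 CPM in the control libraries. Control libraries lay close together, while each of the other groups held libraries near or below them and others well above. Means were 21.4 ± 6.87 CPM in ELS-HFD, 21.2 ± 5.98 in ELS, 24.2 ± 6.02 in HFD and 19.1 ± 1.37 in control. The largest of its pairwise log2 folds against control was 0.34 ± 0.22 in HFD. It was 0.18 without HFD 4, the highest of the 16 libraries, and 0.21 with the excitatory neuron list as a covariate, a setting chosen after seeing the data.

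Htr2c is a Gq-coupled receptor of forebrain neurons and is also dense on the choroid plexus epithelium. It had 169, 341, 386 and 212 CPM in the ELS-HFD libraries, 163, 169, 313 and 324 CPM in the ELS libraries, 335, 183, 280 and 235 CPM in the HFD libraries, and 390, 308, 200 and 341 CPM in the control libraries. The 3 lowest of the 16 values came from ELS 1, ELS 2 and ELS-HFD 1, the libraries lowest in choroid plexus transcripts, and HFD 2 at 183 CPM was next. Means were 277 ± 103 CPM in ELS-HFD, 242 ± 88.3 in ELS, 258 ± 64.9 in HFD and 310 ± 80.7 in control.

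In ELS against control the log2 fold of Htr2c was -0.35 ± 0.30. Without the 3 libraries low in choroid plexus transcripts it was 0.04, which turns the direction, and without ELS 3 and ELS 4 it was -0.89. The first of these values rests on ELS 3 and ELS 4 alone for the ELS group, the other on ELS 1 and ELS 2 alone. The choroid plexus list reached 2.04 in ELS-HFD, 2.21 in ELS, 1.66 in HFD and 2.12 in control at its highest. Its summed level ranged from 57.1 to 13367 CPM in ELS-HFD, 85.5 to 15924 in ELS, 2145 to 9258 in HFD and 2426 to 13200 in control.

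Htr4, the Gs-coupled serotonin receptor, gave the lowest counts of the 8, from 15 to 68 per library. It had 1.44, 2.36, 2.11 and 1.62 CPM in the ELS-HFD libraries, 1.57, 1.24, 2.64 and 2.39 CPM in the ELS libraries, 2.24, 1.43, 2.04 and 1.36 CPM in the HFD libraries, and 2.23, 3.09, 2.22 and 3.45 CPM in the control libraries. Control 2 and control 4 were the highest of all 16, and the other control libraries lay within the upper range of the other groups. Group means were 1.88 ± 0.426 CPM in ELS-HFD, 1.96 ± 0.661 in ELS, 1.77 ± 0.439 in HFD and 2.75 ± 0.624 in control.

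The log2 fold of Htr4 was -0.65 ± 0.26 in HFD against control, with a 95% interval of -1.21 to -0.10 and an edgeR adjusted p of 1.00. It was -0.55 ± 0.26 in ELS-HFD against control and -0.48 ± 0.26 in ELS against control. These 3 comparisons share the control libraries and are not separate evidence. Leaving out 1 library at a time, the HFD against control value stayed between -0.78 and -0.53. The ELS against control value was -0.13 without ELS 1, ELS 2 and ELS-HFD 1 and -0.95 without ELS 3 and ELS 4.

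Adra1a encodes a Gq-coupled receptor for noradrenaline. Its levels were 7.14, 7.09, 3.16 and 6.49 CPM in the ELS-HFD libraries, 5.33, 6.11, 4.05 and 5.64 CPM in the ELS libraries, 5.60, 5.93, 6.18 and 6.05 CPM in the HFD libraries, and 4.11, 6.09, 4.84 and 5.26 CPM in the control libraries. ELS-HFD held both the highest and the lowest library, and HFD was the tightest group. Means were 5.97 ± 1.90 CPM in ELS-HFD, 5.28 ± 0.884 in ELS, 5.94 ± 0.248 in HFD and 5.08 ± 0.828 in control, with no neighbours in that range further apart than their spread.

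Adra2a is the inhibitory receptor through which noradrenaline limits its own release, and it also acts on target neurons. Its levels were 64.5, 51.8, 37.2 and 31.02 CPM in the ELS-HFD libraries, 34.3, 38.6, 20.1 and 21.8 CPM in the ELS libraries, 29.7, 38.6, 48.0 and 37.9 CPM in the HFD libraries, and 34.0, 38.6, 35.6 and 35.6 CPM in the control libraries. ELS-HFD 1 and ELS-HFD 2 were the highest of the 16, ELS 3 and ELS 4 the lowest, and the remaining libraries of those groups overlapped. Means were 46.1 ± 15.0 CPM in ELS-HFD, 28.7 ± 9.14 in ELS, 38.5 ± 7.51 in HFD and 35.95 ± 1.92 in control.

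The log2 fold of Adra2a in ELS-HFD against ELS was 0.69 ± 0.23, with a 95% interval of 0.20 to 1.18, and its edgeR adjusted p was 0.678. By p it ranked 184 among the 14208 genes of that comparison. The averaged diet difference was 0.40 ± 0.16 (edgeR adjusted p = 0.851), and the interaction was 0.59 ± 0.32. In ELS-HFD against ELS the value was 0.48 without ELS-HFD 1, 0.33 without ELS 3 and ELS 4, and 0.33 with the striatal list as a covariate. It was 0.94 without ELS 1, ELS 2 and ELS-HFD 1, and 0.74 with the choroid plexus list as a covariate. The choroid plexus covariate gave an edgeR adjusted p of 0.0522, the smallest for any receptor under any setting tried, which still missed the threshold. Without ELS 3 and ELS 4, the averaged diet difference was 0.22 and the interaction 0.23.

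Adrb1, the Gs-coupled beta receptor of the forebrain that acts in emotional memory, had 26.03, 15.4, 18.98 and 20.2 CPM in the ELS-HFD libraries, 19.6, 19.3, 15.1 and 15.3 CPM in the ELS libraries, 13.0, 18.7, 14.8 and 17.7 CPM in the HFD libraries, and 13.2, 14.0, 16.1 and 13.2 CPM in the control libraries. Of the ELS-HFD libraries, 3 lay above every control library, and ELS-HFD 2 lay below control 3. Means were 20.2 ± 4.42 CPM in ELS-HFD, 17.3 ± 2.46 in ELS, 16.1 ± 2.61 in HFD and 14.1 ± 1.36 in control.

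The log2 fold of Adrb1 in ELS-HFD against control was 0.52 ± 0.15, with a 95% interval of 0.19 to 0.84 and an edgeR adjusted p of 1.00, and by p it ranked 42 among all genes. Its mean separation difference on the 2 diets was 0.31 ± 0.11, with an interval of 0.08 to 0.54. The parts were 0.32 ± 0.15 in ELS-HFD against HFD and 0.29 ± 0.16 in ELS against control. Without ELS 1, ELS 2 and ELS-HFD 1, the libraries low in choroid plexus transcripts, the mean separation difference was 0.14, ELS-HFD against HFD 0.17 and ELS against control 0.10. Without ELS-HFD 1 alone, ELS-HFD against HFD was 0.18, and without ELS 3 and ELS 4, ELS against control was 0.48. Without 1 library at a time, the ELS-HFD against control value ran from 0.37, without ELS-HFD 1, to 0.63, without ELS-HFD 2.

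**Figure D2:**
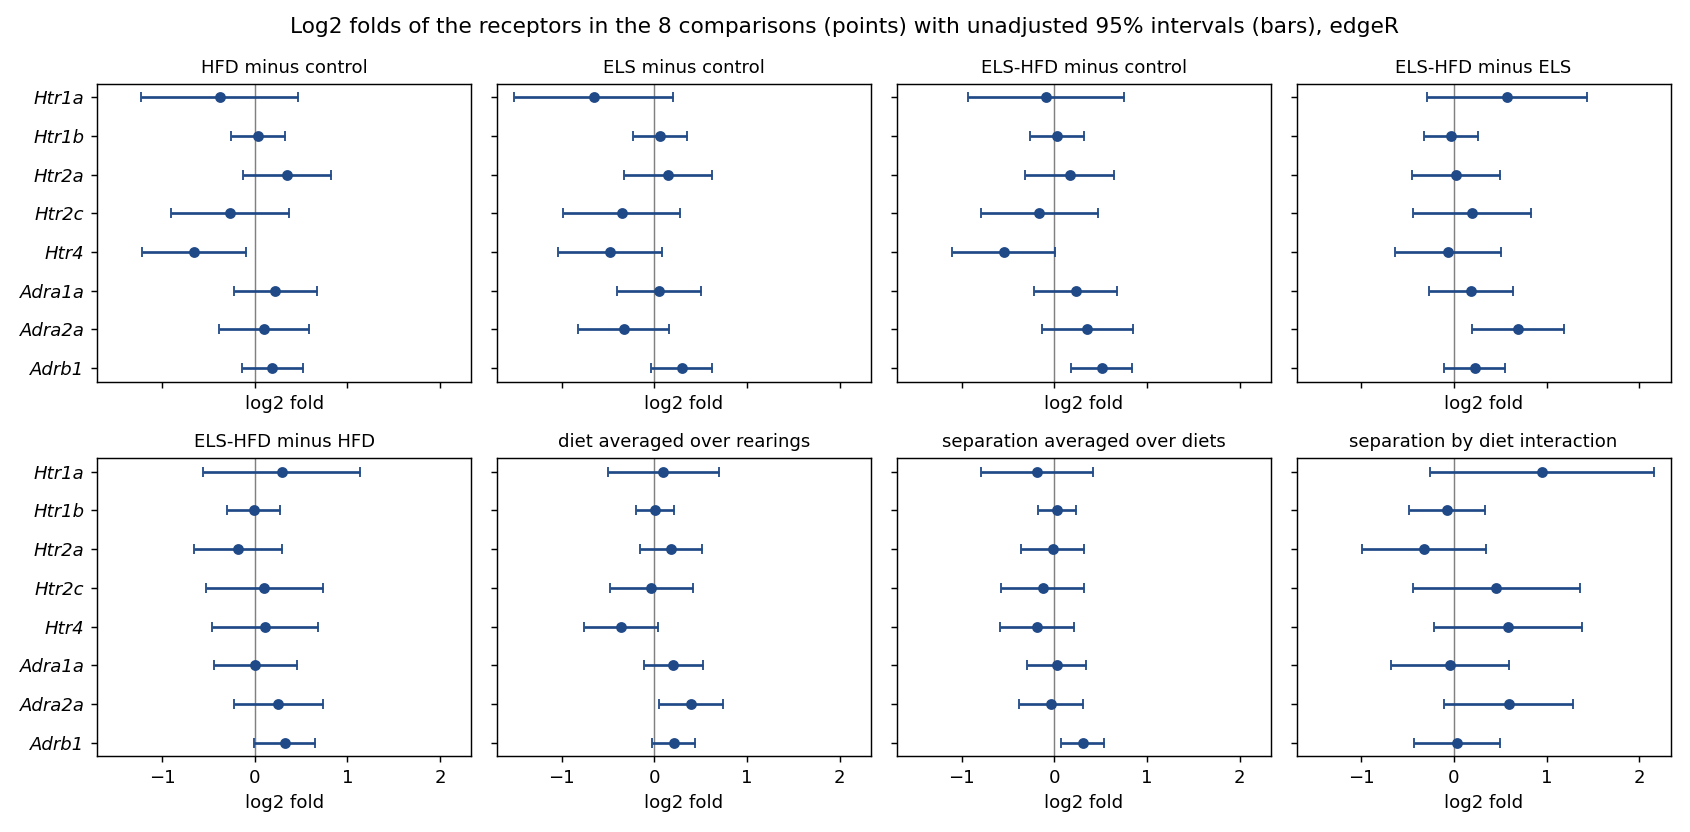
Log2 fold of each receptor (horizontal axes) in the pairwise comparisons and in the averaged and interaction contrasts, with 95% intervals from edgeR. The interval of Htr1b is narrow and covers 0 throughout, and intervals that leave 0 belong to Htr4, Adra2a and Adrb1, none of which passed after adjustment over all genes.

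The authors' deposited table gives its own values for the 5 pairs of groups, once as computed and once with p-values recalibrated by a method not stated. No receptor reached an adjusted p of 0.05 or less in either version of the authors' deposited table. Few of its 15580 genes did, 0 to 5 by comparison as computed and 0 to 40 after recalibration. The recalibrated count in the authors' deposited table was 13 in ELS-HFD against control and 40 in ELS-HFD against ELS. The smallest recalibrated adjusted p-values in the authors' deposited table were 0.082 for Adrb1 in ELS-HFD against control, at a log2 fold of 0.52, and 0.11 for Adra2a in ELS-HFD against ELS, at a log2 fold of 0.69.

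Libraries of the same group differed in their receptor levels by gene. The within-group standard deviation of log2 CPM was 0.66 for Htr1a, 0.48 for Htr2c, 0.36 for Htr4, 0.36 for Adra2a, 0.34 for Htr2a, 0.33 for Adra1a, 0.23 for Adrb1 and 0.21 for Htr1b, and the median over all genes tested was 0.18. In ELS-HFD against ELS the median absolute log2 fold was 0.19 for the 8 receptors and 0.09 for all genes, and in ELS against control it was 0.31 for the receptors and 0.08 for all genes. Over the 8 comparisons the receptor median was highest in the interaction, at 0.39 beside 0.10 for all genes. It was lowest in the averaged separation comparison, at 0.08 beside 0.05 for all genes. Gene levels were not matched in these medians, so they are a description only.

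Part of this variation went along with the marker lists. Each receptor was set against each of 13 marker lists, 104 relations in all, of which 96 covered the 16 libraries and the 8 with the choroid plexus list covered the 13 libraries other than ELS-HFD 1, ELS 1 and ELS 2. P-values are from two-sided permutation tests, with Benjamini-Hochberg adjustment over the 104. Of these, 5 had an adjusted p under 0.05 by Pearson's r, and 23 an unadjusted p under 0.05. The 5 belonged to Htr1a and Adra2a. By Spearman's rho 3 relations had an adjusted p under 0.05, and only Htr1a with the striatal list passed by both measures. Receptor and marker values come from the same libraries and share their depth. The share of other genes with such relations was not computed, so these counts are a description only.

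Htr1a was lower where striatal transcripts were higher, with r = -0.91 (permutation p = 1e-05, the smallest the resamples can give, adjusted p = 0.00104) and Spearman's rho = -0.91. Without ELS 3 and control 4, the libraries farthest from the median of the list, r was -0.84 (permutation p = 6e-05), and with values centred on the group means it was -0.93. Htr1a was also higher where hippocampal transcripts were higher, with r = 0.74 (permutation test, adjusted p = 0.0227), rho = 0.72 (permutation test, adjusted p = 0.0634), and r = 0.64 without ELS-HFD 2 and ELS 3. With the cholinergic list, genes of basal forebrain neurons, Htr1a had rho = -0.78 (permutation test, adjusted p = 0.0236) and r = -0.70 (adjusted p = 0.0504), and r = -0.53 without ELS 3 and ELS 4 (permutation p = 0.0527). The central amygdala list ran the same way as the striatal list but missed the threshold, with r = -0.68 (permutation test, adjusted p = 0.055) and rho = -0.69 (adjusted p = 0.0853). The astrocyte list also missed it, with r = 0.68 (permutation test, adjusted p = 0.055) and rho = 0.59 (adjusted p = 0.118).

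Adra1a was lower where myelin transcripts were higher by rank, with rho = -0.83 (permutation test, adjusted p = 0.0052). Its r was -0.61 (permutation test, adjusted p = 0.123), and -0.75 without ELS 3 and ELS 4 (permutation p = 0.00251).

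Adra2a was lower where myelin transcripts were higher, with r = -0.86 (permutation test, adjusted p = 0.00416), rho = -0.64 (permutation p = 0.00962, adjusted p = 0.0964), and r = -0.66 without ELS 3 and ELS 4 (permutation p = 0.0127). Its relation with the striatal list was r = -0.78 (permutation test, adjusted p = 0.0135), rho = -0.63 (adjusted p = 0.0964), and r = -0.81 without ELS 3 and control 4. The relation with the cholinergic list was r = -0.78 (permutation test, adjusted p = 0.0125) and rho = -0.64 (adjusted p = 0.0964). That one rested on ELS 3 and ELS 4, since r was -0.43 without them (permutation p = 0.118). With the central amygdala list, Adra2a had r = -0.64 (permutation test, adjusted p = 0.0784) and rho = -0.51 (adjusted p = 0.216). Adrb1 passed with no list. With the basolateral amygdala list, in which ELS-HFD lay wholly above control, its r was 0.48 (permutation test, adjusted p = 0.241). Its rho there was 0.59 (permutation test, adjusted p = 0.118), and its r centred on the group means was 0.32. No fit took that list as a covariate. Whether tissue makeup accounts for the group values of Htr1a, Adra2a and Adrb1 was not tested beyond the settings above.

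**Figure D3:**
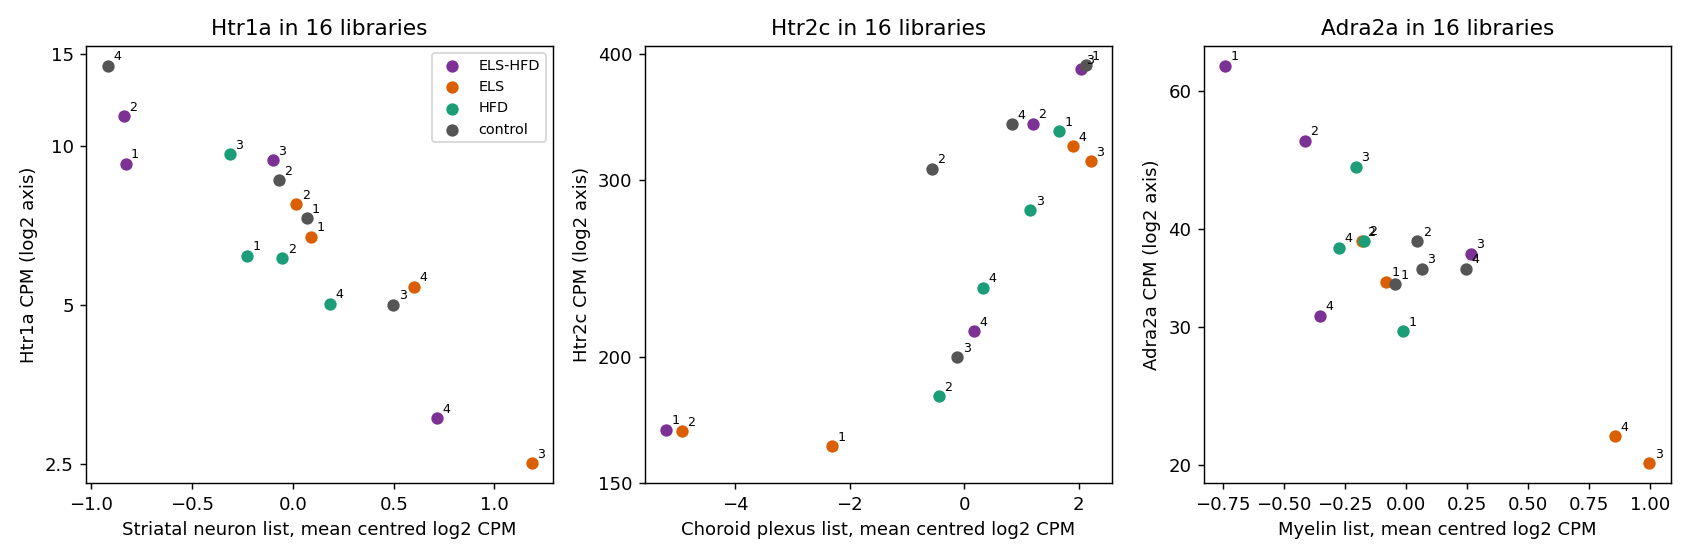
Receptor level against marker list level in the 16 libraries, coloured by group. Htr1a is lower where the striatal list is higher (r = -0.91), and the 3 libraries lowest in choroid plexus transcripts hold the lowest Htr2c levels, 163, 169 and 169 CPM.

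For Htr2c the choroid plexus list splits the libraries into separate clusters, so no pooled value with that list is given. Over the 13 libraries other than ELS-HFD 1, ELS 1 and ELS 2, r was 0.76 (permutation p = 0.00331, adjusted p = 0.0504) and rho was 0.73. Without HFD 2 and control 2, r was 0.86, and centred on the group means it was 0.83. The adjusted value narrowly missed the threshold.

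**Figure D4:**
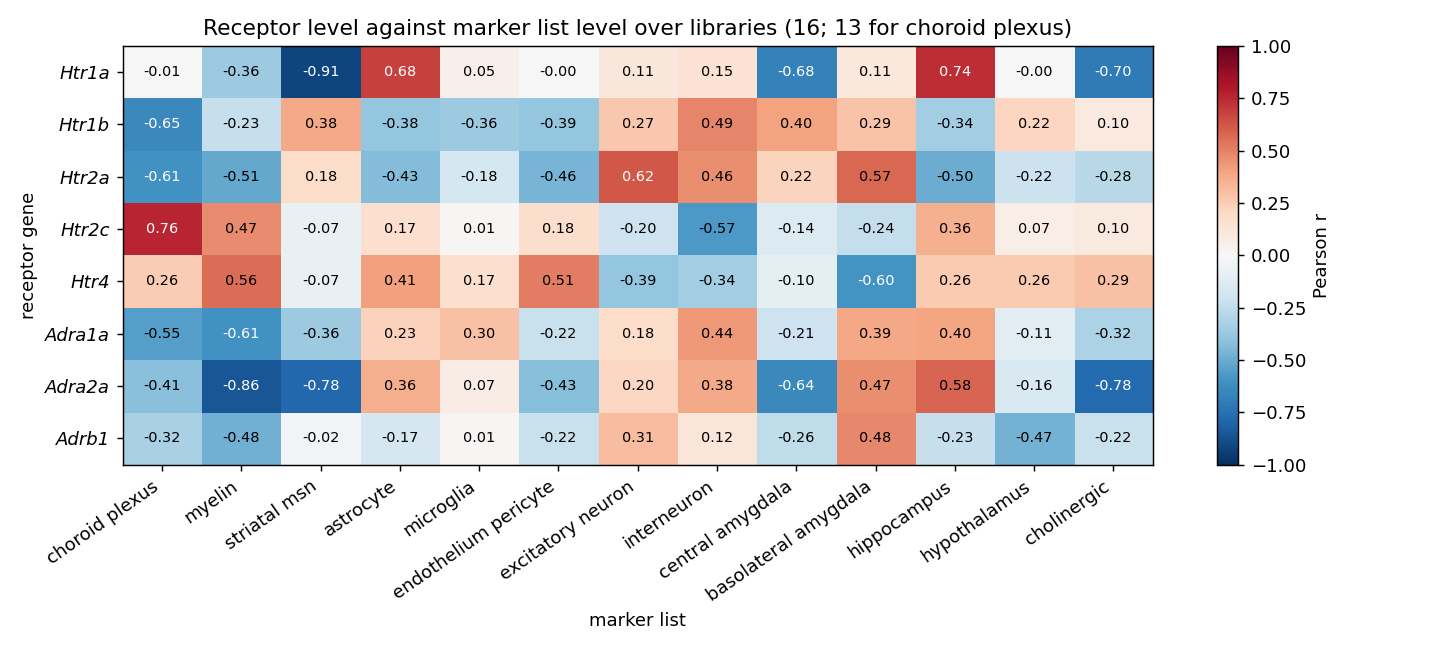
Pearson's r of each receptor (rows) with each of the 13 marker lists (columns) over 16 libraries, or 13 for the choroid plexus list, with colour from negative to positive. The strongest cell is Htr1a with the striatal list at -0.91, and Adra2a is negative with the myelin, striatal and cholinergic lists.

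Some receptors also ran together or opposite across libraries. Of 28 pairs, 7 had an adjusted p under 0.05 by permutation test of Pearson's r, and 6 of them also by Spearman's rho. The share among other gene pairs was not computed, so this count is a description only. Htr2c and Htr4 went together with r = 0.76, rho = 0.68 and r = 0.70 without ELS 1 and ELS 2 (permutation test, adjusted p = 0.00882). Adrb1 ran opposite to both, with r = -0.77 to Htr4 (rho = -0.72, and -0.74 without ELS 2 and control 4) and -0.74 to Htr2c (rho = -0.68, and -0.72 without ELS 1 and ELS 2), at the same adjusted p. Htr2a likewise ran opposite to Htr4 (r = -0.73, rho = -0.79, and -0.71 without ELS-HFD 4 and HFD 4) and to Htr2c (r = -0.68, rho = -0.74, and -0.80 without the same libraries). The pairs with Htr2c pool all libraries, including those low in choroid plexus transcripts. ELS-HFD 1, which is among them, stayed in every one of these checks. Whether the pairs rest on those libraries was not tested.

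The remaining 2 pairs were positive. Htr1b and Htr2a had r = 0.65, rho = 0.66, and 0.65 without ELS 2 and HFD 1 (permutation test, adjusted p = 0.0301). Htr1a and Adra2a had r = 0.67 (permutation test, adjusted p = 0.0271) and rho = 0.60 (adjusted p = 0.0576). That pair was weaker without ELS-HFD 4 and ELS 3, at r = 0.51 (permutation p = 0.062). Adra1a and Adra2a passed by rank alone, with rho = 0.62 (permutation test, adjusted p = 0.0481) and r = 0.47 (adjusted p = 0.154), and r = 0.52 without ELS-HFD 3 and ELS 3. The receptors of a pair share the libraries' depth and tissue makeup.

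The genes whose levels ran most like each receptor over the 16 libraries were taken by Pearson's r on log2 CPM among 13028 genes with a symbol, as a description. For Htr1a they were Slc9a2 (r = 0.92), Pnkd (0.92) and Wnt7b (0.91), and for Htr1b they were Cog8 (0.84), Bcl11b (0.84) and Ddhd2 (0.83). Efhd2 (r = 0.92), Vps26b (0.91) and Arhgap44 (0.91) ran with Htr2a. Calu (r = 0.95), Car12 (0.95) and Tjp3 (0.94) ran with Htr2c, and Dbi (r = 0.88), Odf3b (0.86) and Hadhb (0.86) with Htr4. For the adrenergic receptors the nearest were Cdc42bpa (r = 0.87), Arhgap35 (0.84) and March6 (0.84) for Adra1a, Bhlhe22 (r = 0.96), C1qtnf7 (0.94) and Prune2 (0.91) for Adra2a, and Kcnj4 (r = 0.91), Anapc7 (0.90) and C2cd2l (0.90) for Adrb1. The top 3 of so many genes are high in part through the choice itself.

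The remaining genes of the pathway were followed through 7 lists, with 75 genes listed, 66 in the table and 64 tested. They cover the other serotonin and adrenergic receptors, monoamine synthesis and transport, G protein alpha subunits, second messenger enzymes, potassium channels gated by G proteins, and receptor regulators. None passed the adjusted threshold of edgeR in any of the 8 comparisons, and 29 of 512 tests had an unadjusted p under 0.05. Among all genes, the share at that level ran from 1.77% to 6.21% by comparison. In ELS-HFD against ELS, 6 of the 64 were higher and 4 lower at that level, beside the 6.21% background of all genes.

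Of the other serotonin receptors, Htr5b had the smallest p, in ELS-HFD against ELS. It averaged 2.87 ± 1.29 CPM in ELS-HFD and 1.21 ± 0.478 CPM in ELS (SD, n = 4 each), with every ELS-HFD library above every ELS library. Among all genes, 1.21% lay wholly above in that comparison. The log2 fold of Htr5b was 1.25 ± 0.56, with an edgeR adjusted p of 0.787. Slc22a3, a low-affinity transporter that takes up monoamines outside synapses, had an averaged diet difference of -0.62 ± 0.28 (edgeR adjusted p = 0.879).

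Downstream of the receptors, Plcb4, a phospholipase C activated by Gq, averaged 21.9 ± 3.42 CPM in ELS-HFD and 30.1 ± 3.08 CPM in ELS, with every ELS-HFD library below every ELS library. Among all genes, 1.32% lay wholly below in that comparison, and the share among the pathway genes was not computed. The log2 fold of Plcb4 was -0.46 ± 0.13 (edgeR adjusted p = 0.661). Rgs2, which ends signalling of Gq, averaged 32.5 ± 5.04 CPM in ELS-HFD and 45.1 ± 5.80 CPM in ELS, with a log2 fold of -0.47 ± 0.12 (edgeR adjusted p = 0.661). Gnai1, an inhibitory G protein subunit, averaged 128 ± 13.6 CPM in ELS-HFD and 108.1 ± 13.9 CPM in ELS, a log2 fold of 0.25 ± 0.11. Kcnj9, a potassium channel subunit opened by inhibitory receptors, averaged 68.2 ± 9.47 CPM in ELS-HFD and 56.1 ± 6.28 CPM in control, a log2 fold of 0.28 ± 0.12. None of these passed after adjustment, and each was named because it had the smallest p of its list. That choice favours genes whose groups lie apart.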

How the data were processed

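RNA of 16 brain samples was analysed from the deposited table of raw counts per gene, called raw counts per the file headers. The authors' normalized counts, a signal per library, were used only to check the counts. The authors' log2 fold changes and p-values, per the file headers, appear only in sentences that name their deposited table. The submitters' processing notes give the build as Rnor_6.0 and list HTSeq, STAR, DESeq2, Picard and cutadapt, without versions or roles. The use of strand or molecular identifiers in counting is not given in those notes or the labels, so reads of a gene and an antisense partner cannot be told apart. Libraries were primed with oligo-dT from 15 ng of RNA, per the labels' protocols.

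The quasi-likelihood test of edgeR 4.0.16 (R 4.3.3) was run on the counts, with TMM scaling (factors 0.952 to 1.029) and filterByExpr (minimum count 10, minimum total 15), which left 14208 genes. The 4 group means were fitted together over the 16 libraries. P-values were adjusted by Benjamini-Hochberg over all genes of a comparison, with a threshold of 0.05. The fit was tested on simulated data with known changes, in which every gene had the same variability between libraries. Those changes were larger than the log2 folds of the receptors in the fit of all libraries. The simulation thus does not show how well smaller changes in genes as variable as Htr1a would be found. CPM are scaled with the TMM factors, log2 CPM carries a prior count of 2, and standard errors come from the size of the log2 fold over the root of its F statistic. Relations across libraries used 100000 permutations in numpy 2.4.6, with ranks from scipy 1.17.1. Total counts of 11438086 to 23629824 limit the precision of low genes such as Htr4.

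The named genes are all 8 receptors, the 3 genes most like each by Pearson's r, and the gene with the smallest p in each pathway list. A result under this rule is not reported here. The symbol Gnas stood on more than 1 row, and the row with the larger total was used. The receptors, lists and tests were chosen with earlier results of these data known. The alternatives were DESeq2 1.42.0, other scaling and filters, each library left out, libraries that stand apart left out, marker list levels as covariates, the letter that ends each sample's code, whose meaning is not given, and the replicate number as a block.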

Additional observations from a re-analysis of the deposited data

Results flagged for a closer look

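Within each group of 4 libraries, the gap between the highest or lowest library and the next was divided by the whole range and set against Dixon's 95% critical value. Of 32 combinations of receptor and group, 4 held a library that stood apart, and chance flags about 1 in 20. Htr1b was 17.2 CPM in HFD 1, the lowest of the HFD libraries, with a gap of 0.869 of the range. Htr2a was 31.7 CPM in ELS-HFD 4, the highest of that group (0.875), and 21.2 CPM in control 3, the highest of a tight control group (0.89). Adra1a was 3.16 CPM in ELS-HFD 3, the lowest of that group (0.836).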

How the results depend on the processing

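In each of the 8 comparisons, 0 of the 8 receptors were called in all 28 alternative settings. The log2 fold changed sign in 152 of 1792 receptor values under these settings, none of them called, and 28 of the 64 combinations of receptor and comparison kept 1 sign throughout. Relations between receptors and marker lists with an adjusted p under 0.05 numbered 5 as reported, 7 with a prior count of 0.5 and 10 with values centred on the group means. The permutations of centred values did not allow for the group means taken out. P-values behind the count of 10 thus tend to be too small, and it is not comparable with the others. Whether the replicate numbers pair the samples could not be settled, since differences in tissue makeup between libraries could hide a pairing. The correlation of same-numbered samples ran from -0.479 to 0.652 and exceeded 0.1 in 8 of 24 pairs. Of 16 libraries, 3 correlated best with their own number. With the replicate block, 0 receptors were called in every comparison, and the log2 fold of Adra2a in ELS-HFD against ELS was 0.69. The number of all genes called in ELS-HFD against ELS was 1 as reported, 5 with DESeq2, 44 with the choroid plexus covariate, 116 without ELS-HFD 1, ELS 1 and ELS 2, and 0 without ELS 3 and ELS 4, and the cause was not tested. Depth limits Htr4 most, at 15 to 68 counts.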
